A study of Mus musculus with 6 samples.

Results

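The genes of the imprinted Angelman and Prader-Willi locus of mouse chromosome 7 were followed in the hippocampus of mice that lack a functional maternal copy of *Ube3a*. The set comprised 10 genes given by name, from *Cyfip1* and *Nipa1* at one end through *Atp10a*, *Ube3a*, *Snhg14* and *Snrpn* to *Ndn*, *Magel2*, *Mkrn3* and *Peg12* at the other, out of 25239 genes listed in the count tables. RNA was sequenced from 3 wild-type mice (Ube3am+/p+, WT) and 3 mice with the maternal copy inactivated and the paternal copy kept (Ube3am-/p+), with 1 library for each mouse. All 6 were males of the C57BL/6 strain, and the study's methods give an age of 6 to 8 weeks for its mice. The mutant copy is inherited and so is not restricted to a cell type, and which part of the gene the mutant allele alters is not given in the sources used here. The tissue was taken as a whole, so fewer cells of a type and less RNA per cell cannot be told apart in these values.

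*Ube3a* encodes a HECT-type E3 ubiquitin ligase, and loss of its maternal copy causes Angelman syndrome. In mature neurons the paternal copy is silenced by *Snhg14*, a long antisense RNA that starts near *Snrpn* on the paternal chromosome and runs back across *Ube3a*, whereas glia use both copies. *Snrpn*, *Ndn*, *Magel2*, *Mkrn3* and *Peg12* are transcribed from the paternal chromosome, *Atp10a* has been described as maternally biased in a strain-dependent manner, and *Nipa1* and *Cyfip1* lie outside the imprinted domain and are read from both chromosomes.

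In the RefSeq annotation of GRCm38, *Ube3a* spans chr7:59228750-59310837 on the plus strand and *Snhg14* spans chr7:59272737-60450177 on the minus strand, so that 38101 bases, 46.4% of the *Ube3a* span, lie inside the *Snhg14* span. *Snrpn*, at chr7:59982495-60450177 on the minus strand, lies wholly inside *Snhg14*. *Atp10a* starts before *Ube3a*, at -0.57 Mb from its start, and the starts of *Nipa1* and *Cyfip1* lie further out on that side, at -3.21 and -3.39 Mb. *Ndn*, *Magel2*, *Mkrn3* and *Peg12* form a tight group 3.12 to 3.24 Mb after the *Ube3a* start. The stretch of *Ube3a* mRNA that the study's RT-qPCR primers amplify is shown because it places their readout against the antisense gene. It is a coding product of 126 bases that joins exon 4 (chr7:59247185-59247205 for the forward primer) to exon 5 (chr7:59272019-59272039 for the reverse primer) of GENCODE transcript Ube3a-203. The product ends 698 bases before the end of *Snhg14* in RefSeq, and GENCODE places that end further on, at chr7:59307924. In GENCODE, 33 bases of the product lie opposite exons of another antisense gene, 9330162G02Rik. Both primer sites are present in 8 of the 18 annotated *Ube3a* transcripts. The letters of the primer sites are in capitals.
Ube3a RT-qPCR product: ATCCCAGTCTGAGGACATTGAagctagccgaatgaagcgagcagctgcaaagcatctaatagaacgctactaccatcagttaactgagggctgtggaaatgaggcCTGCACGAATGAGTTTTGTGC

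The windows of 250 bases upstream of the annotated starts are shown for *Ube3a* and for the most distal start of *Snhg14*, which RefSeq also gives as a start of *Snrpn*. These are the opposing ends at which RefSeq places starts of the sense and antisense transcripts. GENCODE places the start of *Snhg14* nearer to *Ube3a*, at chr7:59975759, and which start is used in this tissue was not tested. CG dinucleotides, the sites of CpG methylation, are in capitals. The *Ube3a* window lies at chr7:59228500-59228749 on the plus strand and the shared *Snhg14* and *Snrpn* window at chr7:60450178-60450427 on the minus strand.
Ube3a upstream window: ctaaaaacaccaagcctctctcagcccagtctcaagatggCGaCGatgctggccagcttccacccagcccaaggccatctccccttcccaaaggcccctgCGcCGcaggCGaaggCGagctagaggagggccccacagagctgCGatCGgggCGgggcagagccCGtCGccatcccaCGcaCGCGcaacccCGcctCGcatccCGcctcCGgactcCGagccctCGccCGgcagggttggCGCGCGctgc
Snhg14 and Snrpn upstream window: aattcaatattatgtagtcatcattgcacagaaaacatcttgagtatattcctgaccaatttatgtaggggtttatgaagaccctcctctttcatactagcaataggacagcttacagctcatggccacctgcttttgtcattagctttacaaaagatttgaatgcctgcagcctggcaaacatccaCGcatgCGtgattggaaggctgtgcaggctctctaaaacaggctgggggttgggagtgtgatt
The *Ube3a* window held 24 CG dinucleotides, and 12% of the 32817 RefSeq promoter windows of the same length held at least as many. The *Snhg14* and *Snrpn* window held 2, a count reached or passed by 81.2% of windows. Of the 9 locus genes with a window, *Nipa1* had 18, *Atp10a* 14, *Mkrn3* 10, *Peg12* 8, *Magel2* 7 and *Ndn* 5, against a median of 6 over all windows. Methylation was not analysed here.

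Counts assigned to genes came to 7293272 to 8675252 in WT and 8871052 to 11314409 in Ube3am-/p+ libraries. Of 14445 genes with enough counts to be tested, 290 (2.01%) were called changed by edgeR's quasi-likelihood test at a p of less than 0.05 after Benjamini-Hochberg adjustment, with more than a 1.2-fold difference, of which 143 (0.990%) were lower and 147 (1.02%) higher in Ube3am-/p+ mice. The libraries also differed in how their counts related to the GC content of the genes. Over 14201 genes, the Spearman correlation between GC content and a library's deviation from the mean was 0.05 and 0.06 in the first WT and the first Ube3am-/p+ library, -0.51 and -0.58 in the other WT libraries and 0.53 in both other Ube3am-/p+ libraries. The 1421 genes with the lowest GC content, up to 41.5%, had a median log2 fold change of -0.29 and the 1420 with the highest, from 58.0%, one of 0.26. Each tested locus gene is given with its GC content and with its value from a second fit, in which a curve for GC content and transcript length was removed from each library and 92 genes (0.648%) were called.

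*Ube3a*, the targeted gene, was the locus gene that passed the test, and it was lower in Ube3am-/p+ mice. Its level was 104, 141 and 151 counts-per-million units (CPM, on gene counts) in the 3 WT mice and 96.8, 82.9 and 80.6 CPM in the 3 Ube3am-/p+ mice. The groups did not overlap, although the lowest WT mouse lay close to the highest Ube3am-/p+ mouse. The mean fell from 132 ± 25.0 to 86.8 ± 8.78 CPM (SD, n = 3 in each), a difference of -34.1%. In the fit this was a log2 fold change of -0.58 ± 0.12 (SE), with a 95% interval of -0.85 to -0.32 and an adjusted p of 0.0363 in edgeR. An exact two-sided permutation test gave p = 0.1, which is the smallest p that 3 mice against 3 can give.

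Some *Ube3a* RNA was counted in every Ube3am-/p+ mouse, at a fold of 0.667 to WT in the fit (95% interval 0.556 to 0.800). The 3 libraries held 859, 938 and 848 *Ube3a* counts. RNA of the kept paternal copy, transcripts of the mutant copy and antisense RNA at overlapping exons cannot be told apart in these gene totals. GENCODE places 1803 bases of *Snhg14* exon, 8.74% of the merged *Ube3a* exon length, opposite *Ube3a* exons. Exons of 9330162G02Rik (8.71%) and Gm44560 (9.82%), which are not listed in the count tables, also lie opposite *Ube3a* exons. Whether counting used strand is not given in the sources used here.

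The size of the *Ube3a* difference depended on the GC correction. With 36.9% GC in its longest transcript, *Ube3a* had a lower GC content than all but 1.02% of tested genes. In the corrected fit its log2 fold change was -0.20 (95% interval -0.36 to -0.03) with an adjusted p of 0.240, so the direction stayed and the call was lost. The call was also lost when WT mouse 2, WT mouse 3, Ube3am-/p+ mouse 2 or Ube3am-/p+ mouse 3 was left out, with log2 fold changes of -0.53, -0.48, -0.54 and -0.54.

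**Figure D1:**
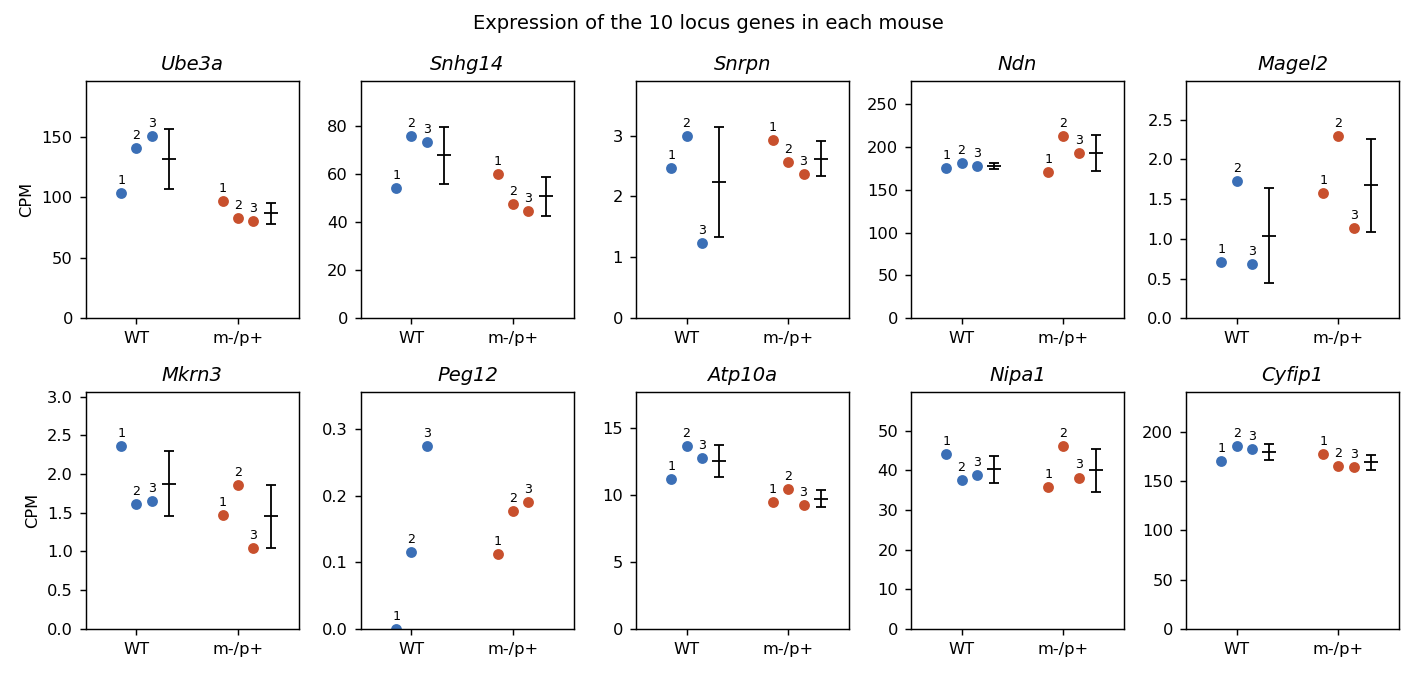
CPM on the vertical axis, from 0, for the 10 locus genes in each of the 6 mice, with points numbered by replicate and the mean ± SD (n = 3) beside each group except for Peg12, which had at most 2 counts in any library. Ube3a and Atp10a were lower in all 3 Ube3am-/p+ mice than in any WT mouse, and the groups overlapped for the other genes.

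**Figure D2:**
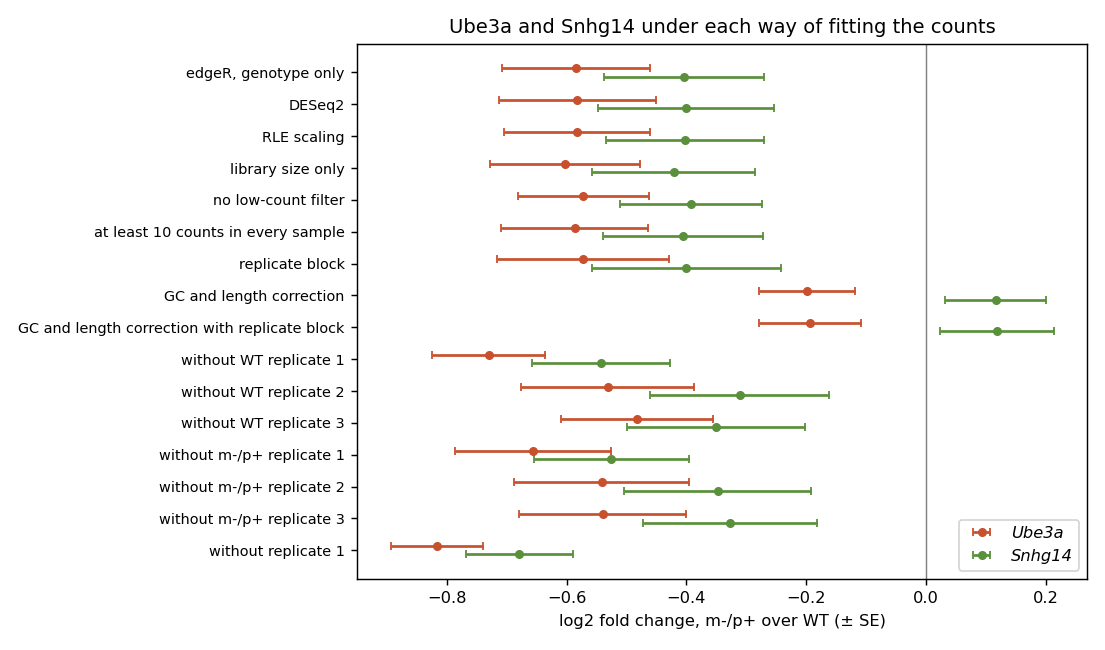
The log2 fold change (Ube3am-/p+ over WT, ± SE) of Ube3a in red and Snhg14 in green under the edgeR fit and its alternatives, where without replicate 1 leaves out the first mouse of both genotypes. All Ube3a values lay below 0, from -0.82 to -0.19, and Snhg14 lay above 0 in the fits with the GC and length correction.

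*Snhg14*, the antisense transcript, was lower on average and did not pass the test. It stood at 54.2, 76.0 and 73.4 CPM in WT mice and at 60.0, 47.5 and 44.8 CPM in Ube3am-/p+ mice. The first WT mouse lay below the first Ube3am-/p+ mouse, so the groups overlapped. The means were 67.8 ± 11.9 and 50.7 ± 8.11 CPM, and the log2 fold change was -0.40 ± 0.13 (SE) with an adjusted p of 0.0897 in edgeR. *Snhg14* had a GC content of 31.0%, and 0.00704% of tested genes, 1 of 14201, had a lower one. In the corrected fit its log2 fold change was 0.12 (95% interval -0.06 to 0.29, adjusted p = 0.562), which turned the direction. Since only 4 tested genes had a GC content up to 33%, the correction rests on few genes there.

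Sense and antisense were also compared within each mouse, by a ratio chosen after the values had been seen. There were 1.91, 1.85 and 2.06 *Ube3a* counts for each *Snhg14* count in WT mice and 1.61, 1.75 and 1.80 in Ube3am-/p+ mice. The highest Ube3am-/p+ ratio lay just under the lowest WT ratio. The mean ratio was 1.94 ± 0.106 in WT and 1.72 ± 0.0956 in Ube3am-/p+ mice, a difference of -11.3% (p = 0.1 in an exact two-sided permutation, the lowest value that 3 mice against 3 allow). The ratio was not corrected for GC content, 36.9% for *Ube3a* and 31.0% for *Snhg14*, or for reads at their overlapping exons. The corrected log2 fold changes were -0.20 for *Ube3a* and 0.12 for *Snhg14*. *Snhg14* was among the genes whose level followed that of *Ube3a* across the mice, with a Pearson r of 0.96 in log2 CPM over the 6 libraries. This placed it at rank 581 of 14444 genes, and the 3 closest were *Pcmtd2* (r = 0.999), *Ythdf3*, an m6A reader (0.998), and *H1f2*, a linker histone (0.998). These points share the libraries and their dependence on GC content, which was 40.7% for *Pcmtd2* and 38.4% for *Ythdf3*.

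Of the paternally expressed protein-coding genes, 0 of 4 tested were called by edgeR and 0 had an unadjusted p below 0.05. Of all tested genes, 2.01% were called and 24.6% had an unadjusted p below 0.05. *Snrpn*, *Magel2* and *Mkrn3* had at most 29 counts in any library, so 0 of 4 does not show that these genes were unchanged. DESeq2 gave an adjusted p for *Ndn* only (0.377). *Ndn*, which encodes necdin, a MAGE protein of postmitotic neurons, was measured most deeply, at 175, 182 and 178 CPM in WT and 171, 213 and 193 CPM in Ube3am-/p+ mice. The WT mice were close together, and the Ube3am-/p+ mice lay both below and above them. The means were 178 ± 3.42 and 193 ± 21.0 CPM, with a log2 fold change of 0.13 ± 0.09 (SE, adjusted p = 0.384 in edgeR). At a GC content of 44.5%, the corrected fit gave *Ndn* 0.27 (95% interval 0.09 to 0.44) with an adjusted p of 0.125, so the interval lay above 0 and the gene was not called.

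*Magel2*, a MAGE protein that works with a ubiquitin ligase in endosomal protein recycling, was counted 6, 15 and 5 times in WT and 14, 26 and 12 times in Ube3am-/p+ libraries. Its CPM values of 0.707, 1.73 and 0.686 in WT overlapped those of 1.58, 2.30 and 1.14 in Ube3am-/p+ mice. Its log2 fold change was 0.68 ± 0.46 (SE, adjusted p = 0.367), the least precise among the locus genes, and it ran from 0.38 without Ube3am-/p+ mouse 2 to 1.27 without WT mouse 2. *Mkrn3*, a RING-finger ubiquitin ligase known for restraining the onset of puberty, was counted 20, 14 and 12 times in WT and 13, 21 and 11 times in Ube3am-/p+ libraries. Its log2 fold change was -0.34 ± 0.37 (SE, adjusted p = 0.605), the groups overlapped, and it ran from -0.56 without Ube3am-/p+ mouse 2 to -0.14 without WT mouse 1. The corrected fit gave 0.50 (adjusted p = 0.665) for *Magel2*, with 57.6% GC, and -0.37 (adjusted p = 0.722) for *Mkrn3*, with 49.9% GC. *Peg12*, an intronless paternally expressed gene, had 0, 1 and 2 counts in WT and 1, 2 and 2 in Ube3am-/p+ libraries. All of these are under the floor of 3 counts, which is 0.353 CPM in the first WT library, so *Peg12* was not tested and no difference was detectable at this depth.

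*Snrpn*, which encodes the spliceosomal protein SmN and is a major neuronal transcript of the domain, was listed with 21, 26 and 9 counts in WT and 26, 29 and 25 in Ube3am-/p+ libraries. The third WT mouse was the low value, and the others lay between 2.38 and 3.00 CPM. Its log2 fold change was 0.22 ± 0.34 (SE, adjusted p = 0.723), and it was -0.05 without the third WT mouse. At 45.5% GC, the corrected fit gave *Snrpn* 0.29 (adjusted p = 0.762). *Snurf*, which shares its transcript with *Snrpn*, was listed at 0 in all 6 libraries. RefSeq places the whole *Snurf* span, chr7:59982495-60005199, inside *Snrpn*, and each library held 55478 to 102592 reads set aside as ambiguous between genes. Whether *Snrpn* reads are among these was not tested, so its level is not set beside those of the other genes.

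*Atp10a*, a P4-ATPase that flips phospholipids across membranes, was lower in all 3 Ube3am-/p+ mice than in any WT mouse. The levels were 11.2, 13.6 and 12.8 CPM in WT and 9.47, 10.4 and 9.22 CPM in Ube3am-/p+ mice. The means of 12.5 ± 1.22 and 9.71 ± 0.638 CPM differed by -22.4%, with a log2 fold change of -0.35 ± 0.16 (SE, 95% interval -0.69 to -0.01). This did not pass the test (adjusted p = 0.194 in edgeR, exact permutation p = 0.1). The GC content of *Atp10a* was 51.7%, near the middle of the tested genes, and the corrected fit gave -0.38 (adjusted p = 0.266).

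The genes outside the imprinted domain showed small differences. *Nipa1*, a magnesium transporter mutated in hereditary spastic paraplegia, stood at 44.2, 37.7 and 38.9 CPM in WT and at 35.7, 46.0 and 38.2 CPM in Ube3am-/p+ mice. Fitted over all mice, the log2 fold change was 0.01 ± 0.12 (SE), with a 95% interval of -0.24 to 0.26, and the sign depended on the scaling and on the mice included. The corrected fit gave 0.06 (adjusted p = 0.856) for *Nipa1*, with 47.5% GC. *Cyfip1*, a partner of FMRP and a subunit of the WAVE actin-regulatory complex, stood at 171, 185 and 183 CPM in WT and at 178, 166 and 164 CPM in Ube3am-/p+ mice. Its groups overlapped through the first mouse of each genotype. A log2 fold change of -0.07 ± 0.08 (SE), with a 95% interval of -0.24 to 0.10, was found, and 0.06 in the corrected fit (adjusted p = 0.769) at 46.1% GC. Part of each gene lies opposite another, with 14.9% of *Nipa1* exon length facing A230056P14Rik and 11.0% of *Cyfip1* exon length facing *Nipa2*.

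Across the locus genes, 1 of the 9 tested was called, against 2.01% of all tested genes, and 5 had a negative and 4 a positive log2 fold change with a median of -0.07, against 0.0025 over all tested genes. The CPM of the genotypes did not overlap for *Ube3a* and *Atp10a*, which is 2 of 9, where 25.0% of all tested genes had groups that did not overlap. *Ube3a*, *Snhg14* and *Atp10a* had an unadjusted p below 0.05, which is 3 of 9, against 24.6% of all tested genes. With 9 genes tested, the shares by overlap and by unadjusted p lay near those of all tested genes, and the 1 called gene was the targeted one. In the corrected fit 0 of 9 were called, and *Ube3a*, *Ndn* and *Atp10a* had an unadjusted p below 0.05, which 14.2% of all genes in that fit had.

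**Figure D3:**
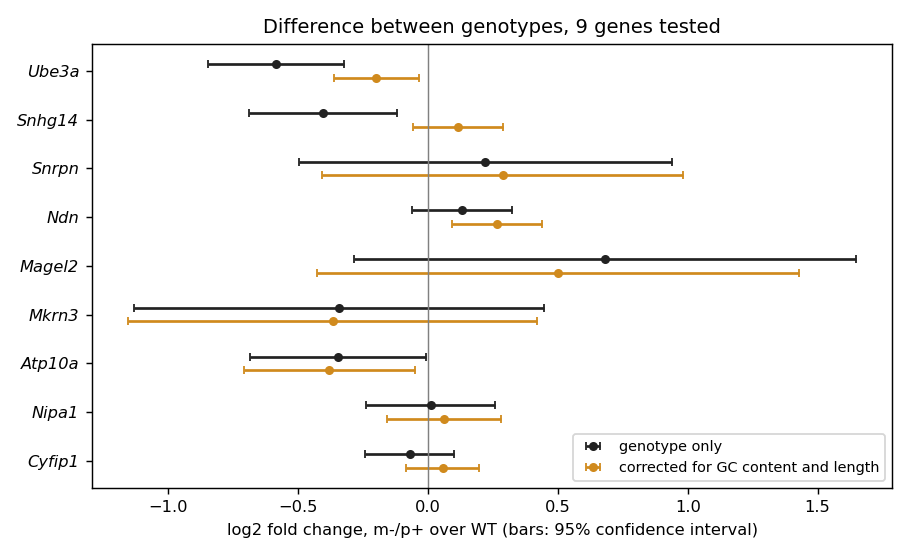
The log2 fold change (Ube3am-/p+ over WT) with its 95% interval for the 9 tested locus genes, from the edgeR fit and from the fit with GC and length corrected. Ube3a moved from -0.58 to -0.20 and Snhg14 from -0.40 to 0.12 between the fits, while Atp10a stayed at -0.35 and -0.38.

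Levels were compared between genes in WT mice as RPKM, which is CPM divided by the kilobases of merged GENCODE exon. *Ndn* was highest at 48.2 ± 0.925 RPKM (SD, n = 3), followed by *Cyfip1* at 15.1 ± 0.642, *Nipa1* at 12.7 ± 1.08 and *Ube3a* at 6.39 ± 1.21 RPKM. Below these came *Snhg14* at 2.60 ± 0.456, *Atp10a* at 2.24 ± 0.219, *Mkrn3* at 0.735 ± 0.165, *Magel2* at 0.225 ± 0.129 and *Peg12* at 0.0492 ± 0.0522 RPKM. Only *Snhg14* and *Atp10a* were neighbours whose mice overlapped, with 2.08 to 2.91 and 2.00 to 2.43 RPKM. *Ube3a* in Ube3am-/p+ mice, at 4.21 ± 0.426 RPKM, kept its place between *Nipa1* and *Snhg14* by this measure. The order rests on the merged exon length, which is 20626 bases for *Ube3a* against 9856 in its longest transcript. For *Snhg14* these lengths are 26093 and 6861 bases, and for *Nipa1* both are 3183. Whether the order holds with other lengths was not tested.

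The other genes of the region were taken by position, from 1 Mb before *Cyfip1* to 1 Mb after *Peg12*. Of 37 listed genes, 17 had no count in any library and 13 were tested. In edgeR 0 were called, against 2.01% of all tested genes, and 6 had an unadjusted p below 0.05, against 24.6%. Of the 13, 11 had a negative and 2 a positive log2 fold change, and the median was -0.26, which became -0.05 in the corrected fit. *Gabra5*, a subunit of the GABA-A receptor encoded between *Nipa1* and *Atp10a*, stood at 249, 295 and 298 CPM in WT and at 236, 209 and 224 CPM in Ube3am-/p+ mice. All Ube3am-/p+ mice lay below all WT mice, with a log2 fold change of -0.32 ± 0.09 (SE, adjusted p = 0.0632 in edgeR), and DESeq2 called it. The correction left *Gabra5*, with 47.1% GC, at -0.26 (adjusted p = 0.0737).

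Other tested flanking genes were not called either. *Gabrg3*, another GABA-A receptor subunit, had a log2 fold change of -0.26 (adjusted p = 0.257), *Tubgcp5*, a component of the gamma-tubulin ring, -0.26 (0.191), and *Nipa2*, a magnesium transporter next to *Cyfip1*, -0.11 (0.547). In the corrected fit these values became -0.04 (adjusted p = 0.935), -0.05 (0.894) and 0.12 (0.606). *Herc2*, an E3 ligase whose product binds UBE3A, had 273 ± 7.79 CPM in WT and 268 ± 27.0 CPM in Ube3am-/p+ mice, and its log2 fold change was -0.01 (95% interval -0.19 to 0.18). *Oca2* had 55 counts in all and was not tested. *Ipw*, which lies inside *Snhg14*, was listed at 0 in every library.

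**Figure D4:**
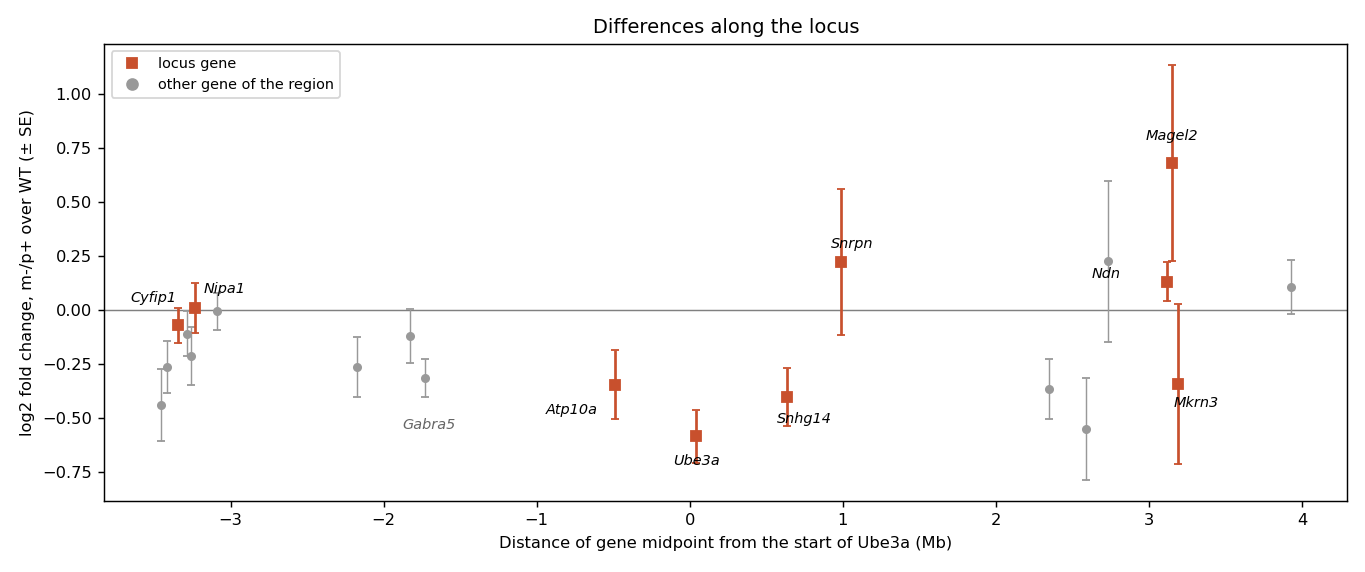
The log2 fold change (Ube3am-/p+ over WT, ± SE) of the tested genes of the region reported here against the distance in Mb of each gene's midpoint from the start of Ube3a, with the locus genes as squares and other genes, from 1 Mb before Cyfip1 to 1 Mb after Peg12, as circles. In this edgeR fit the values from Gabrg3 to Snhg14 lay below 0, and among the locus genes Nipa1, Snrpn, Ndn and Magel2 lay above it. The corrected fit, which is not drawn, gave 0.12 for Snhg14 and -0.04 for Gabrg3. It left Gabra5 at -0.26, Atp10a at -0.38 and Ube3a at -0.20.

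Genes that act with the locus genes were read from the same fit. Of the 12 spliceosomal Sm and snRNP genes, which encode the complexes that SmN joins, 1 rose and 0 fell, where 1.02% of all tested genes rose and 0.990% fell, with a median log2 fold change of 0.19. The called gene was *Snrpd3*, a core Sm protein, at 24.4, 21.2 and 21.3 CPM in WT and 27.8, 37.7 and 37.3 CPM in Ube3am-/p+ mice. All Ube3am-/p+ mice were above all WT mice, the log2 fold change was 0.64 ± 0.14 (SE, adjusted p = 0.0362 in edgeR), and the corrected fit gave 0.69 (adjusted p = 0.0136). Of the 12 other P4-ATPases and their subunits, 1 rose and 0 fell, against the same shares of all tested genes, with a median of -0.12. This was *Atp9a*, an endosomal member, at 310.0 ± 26.0 CPM in WT and 413 ± 42.0 CPM in Ube3am-/p+ mice (log2 fold change 0.43, adjusted p = 0.0387), which was not called in the corrected fit (0.25, adjusted p = 0.0768).

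The other partner lists held no called gene in edgeR, where 2.01% of all tested genes were called and 24.6% had an unadjusted p below 0.05. None of 16 tested imprint-control genes passed (6 at an unadjusted p below 0.05, median -0.14), and *Zfp57*, a zinc finger protein that protects imprints, had a log2 fold change of -0.59 (adjusted p = 0.0632). None of 7 UBE3A partners passed (3 unadjusted, median -0.09), none of 17 MAGE genes and *Magel2* partners (6 unadjusted, median -0.07), none of 10 WAVE complex genes and FMRP partners of *Cyfip1* (6 unadjusted, median -0.13) and none of 4 NIPA family genes (1 unadjusted, median -0.14). DESeq2 called *Ehmt2*, *Abi2* and *Fmr1* among them, where it called 961 of all 19291 genes with a count. The corrected fit called none of these genes, at 0.04 (adjusted p = 0.820) for *Ehmt2*, -0.15 (0.299) for *Abi2* and -0.07 (0.768) for *Fmr1*. The medians of the lists, in the order given, were -0.07, 0.03, -0.01, -0.00 and -0.02 in the corrected fit.

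**Figure D5:**
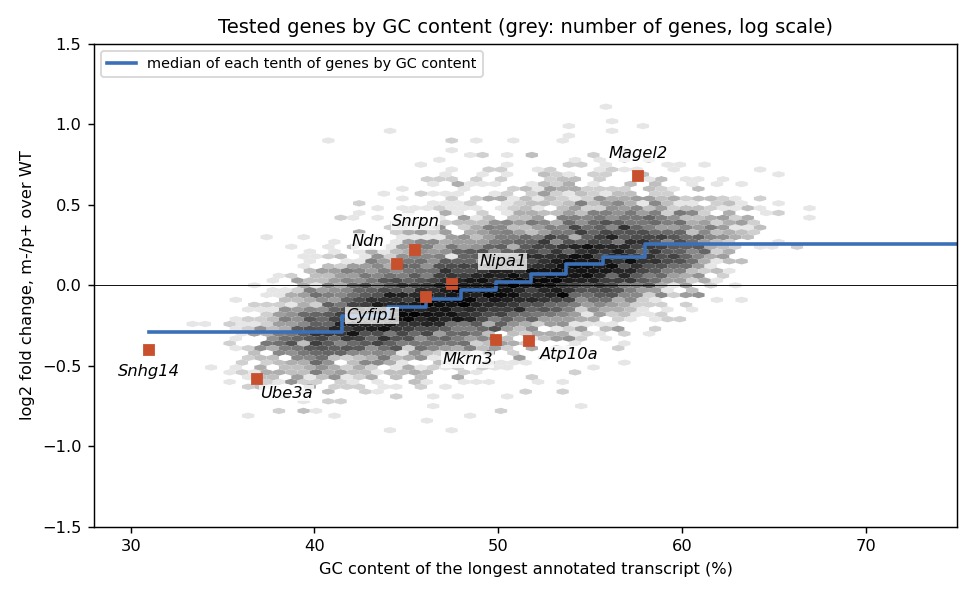
The log2 fold change (Ube3am-/p+ over WT) against the GC content in percent of the longest transcript, with the density of the tested genes in grey on a log scale, the medians of 10 bins of genes by GC content as a line and the 9 tested locus genes as squares. Ube3a and Snhg14 lay at the low-GC end, where the median was -0.29, and 11 genes fell outside the axes.

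Markers of the cell types in the tissue were read as a measured background. Neuronal markers summed to 11067 to 11731 CPM in WT and 11119 to 12018 CPM in Ube3am-/p+ mice, and 0 of 8 were called. Of these, 6 had an unadjusted p below 0.05, against 24.6% of all tested genes, with *Rbfox3*, *Slc17a7* and *Thy1* higher and *Snap25*, *Gad1* and *Gad2* lower. The GC content was 58.6, 56.6 and 55.8% in the higher genes and 38.7, 47.3 and 44.1% in the lower ones, in that order. The corrected fit gave log2 fold changes of 0.10, 0.18 and 0.03 and of 0.07, -0.15 and -0.20, and called none of them. Hippocampal neuron markers summed to 585 to 626 CPM in WT and 460.4 to 577 CPM in Ube3am-/p+ mice, oligodendrocyte markers to 7534 to 7653 and 6229 to 7146 CPM, and microglial markers to 336 to 379 and 297 to 330 CPM, so that these 3 sums were lower in every Ube3am-/p+ mouse than in any WT mouse. The oligodendrocyte and microglial markers did not all share that direction, with log2 fold changes of 0.02 for *Mbp*, 0.16 for *Mag* and 0.22 for *Tmem119*. All 4 hippocampal neuron markers had a negative log2 fold change in the edgeR fit, from -0.38 to -0.10. The corrected medians were -0.11 for the hippocampal neuron, -0.09 for the oligodendrocyte and -0.19 for the microglial markers. Astrocyte sums of 1447 to 1590 and 1373 to 1470 CPM and endothelial sums of 151 to 169 and 152 to 165 CPM overlapped. Of the meningeal markers 1 of 6 was called in edgeR, against 2.01% of all tested genes, with sums of 85.8 to 143 and 85.4 to 164 CPM. This was *Col1a1* (log2 fold change 0.73, adjusted p = 0.0416), which was not called in the corrected fit (0.55, adjusted p = 0.0750). Of the 6, 5 had a positive and 1 a negative log2 fold change, from -0.63 for *Ogn* to 0.73 for *Col1a1*, with *Lum* at 0.02. Choroid plexus markers ranged from 98.6 to 2148 CPM in WT and from 104 to 2241 CPM in Ube3am-/p+ mice, which is a wide range within both genotypes. No marker was at 0, and the part of cell composition in the differences of *Ube3a*, *Snhg14* and *Atp10a* was not tested.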

How the data were processed

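Hippocampal RNA of 6 mice was sequenced by the authors, and 1 table of read counts per gene was deposited for each mouse. Per the labels, the submitters' processing notes name STAR 2.7.4a, HTSeq and the mm10 build. The gene annotation and strand setting are not given in the sources used here. Lines that name no gene (no feature 54.1 to 55.1% of reads, ambiguous 0.297 to 0.383%) were left out of library sizes. Samples were grouped by the genotype in their titles. The labels give no sequencing batch and do not say that the mice came from separate litters.

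Counts were tested in R 4.3.3 with edgeR 4.0.16 (filterByExpr, TMM scaling, robust quasi-likelihood fit with genotype as the term, two-sided), with Benjamini-Hochberg adjustment over 14445 genes. Genes were called where the adjusted p was below 0.05 and the difference exceeded 1.2-fold. CPM used total gene counts, and RPKM the merged exons of GENCODE M21 (GRCm38). Coordinates and upstream windows came from RefSeq GRCm38. In the corrected fit, natural splines (5 df each) in GC content and length of the longest transcript were removed from log2 CPM of each library with a prior count of 2. The fit was tested on simulated data that held no dependence on GC content, so that test does not cover the dependence seen in these libraries. DESeq2 1.42.0, other scalings, filters, thresholds, a replicate block and left-out mice were the alternatives, 17 in all.

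The locus genes and gene lists were chosen with earlier results of these data known. Beside the 10 locus genes, the text names called genes of each list (at most 5), the flanking genes, genes with overlapping exons and the 3 genes most like *Ube3a*. *Zfp57*, *Ehmt2*, *Abi2*, *Fmr1*, *Col1a1* and the other single markers were named after their values were seen. An item of the region is not reported here.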

Additional observations from a re-analysis of the deposited data

How the results depend on the processing

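The log2 fold change of *Ube3a* stayed negative under all 17 alternatives. It lost its call with the replicate block (-0.57, adjusted p = 0.216), the GC and length correction (-0.20) and both (-0.19). It ranged from -0.73 to -0.48 with 1 mouse left out and was -0.82 without the first mouse of both genotypes. Called locus genes, 1 in the edgeR fit, numbered 2 with no low-count filter (*Ube3a* and *Snhg14*) and 2 without the first mouse of both genotypes. At an unadjusted p below 0.05 with the 1.2-fold threshold kept, there were 3 (*Ube3a*, *Snhg14* and *Atp10a*). The number was 0 with the block, 0 with the correction, 0 with both, and 0 to 2 with 1 mouse left out. Called genes over the whole table, 290 in the edgeR fit, numbered 961 with DESeq2, 1176 with no filter, 92 with the correction and 13 with the correction and block. Without the first mouse of both genotypes 4138 of 14631 tested genes were called. At an unadjusted p with the 1.2-fold threshold kept, 2832 of 14445 were called. With the block 0 were called, and 2422 had an unadjusted p below 0.05 at any fold, against 3560 in the edgeR fit. Called genes numbered 0 to 2582 with 1 mouse left out: 2582 of 14646 without WT mouse 1, 1816 without Ube3am-/p+ mouse 1, 2 without Ube3am-/p+ mouse 3 and 0 without any of WT mouse 2, WT mouse 3 or Ube3am-/p+ mouse 2 (2075, 2159 and 2128 at an unadjusted p below 0.05 and any fold). The called genes of the region, 0 of 13 tested in the edgeR fit, numbered 2 of 20 with DESeq2 and with no filter (*Gabra5* among them). There was 1 of 13 with RLE scaling, library size alone or at least 10 counts in every mouse. At an unadjusted p with the 1.2-fold threshold kept, there were 5 of 13. The region held 6 of 14 without the first mouse of both genotypes and 0 to 5 with 1 mouse left out, the most being 5 of 14 without WT mouse 1. Called partner genes, 2 of 82 tested in the edgeR fit, numbered 10 of 84 with DESeq2 and 11 of 84 with no filter. There were 4 with RLE scaling, library size alone or at least 10 counts, 1 of 82 with the correction, 0 with the block and 0 with both. At an unadjusted p with the 1.2-fold threshold kept, there were 22 of 82. The lists held 40 of 83 without the first mouse of both genotypes, where 4138 of all 14631 tested genes were called. With 1 mouse left out the number was 0 to 29, the most being 29 of 83 without WT mouse 1, where 2582 of all 14646 were called. The direction turned for *Snhg14* (0.12) and *Cyfip1* (0.057) with the correction, and likewise with the block added (0.12 and 0.056), for *Nipa1* with library size alone (-0.0072) and without WT mouse 2 (-0.036), WT mouse 3 (-0.018) or Ube3am-/p+ mouse 2 (-0.094; its range with mice left out was -0.094 to 0.155), and for *Snrpn* without WT mouse 3 (-0.054; range -0.054 to 0.488). *Snhg14* was called without WT mouse 1 (-0.54), without Ube3am-/p+ mouse 1 (-0.53) and without both (-0.68). The replicate numbers were not used as pairs, since same-numbered mice deviated oppositely (correlations of -0.285, -0.177 and -0.311), and the block changed no other call among the locus genes. *Peg12*, and at a minimum of 10 counts *Magel2* and *Snrpn*, gave no value under the filters. Depth limits *Magel2*, *Mkrn3*, *Peg12* and *Snrpn*, and the causes of the changes were not tested.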
